A study of Mus musculus with 12 samples.

Results

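The transcripts described here are 10 genes of the NF-κB feedback loop and the acute inflammatory response, Nfkbia, Tnfaip3, Nfkbiz, Relb, Socs3, Tnf, Il6, Ptgs2, Lcn2 and Saa3. They were picked by gene name from the 23127 genes of a whole-lung RNA sequencing table, and each name matched a single row. The lungs came from 12 C57BL6/J mice in 3 groups of 4. The 0-week controls had neither agent. The other groups received L-NAME, an inhibitor of nitric oxide synthase, at 0.5 g/L in drinking water together with a high-fat diet (HFD) of 60% lipid, for 2 weeks or for 5 weeks. L-NAME and the diet were given only together and the controls were taken at 0 weeks, so the effects of L-NAME, of the diet and of time cannot be told apart. Age and sex are not given. Each library is treated as a separate mouse, from the mouse numbers in the labels. About 25900000 to 34000000 reads per library were assigned to genes. The tissue label was checked on lung markers, and 0 of 8 alveolar type 2, 0 of 7 alveolar type 1 and 0 of 9 endothelial markers averaged under 1 CPM. A single-cell experiment mentioned in the series was not analysed here.

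NF-κB is a family of dimeric transcription factors held in the cytoplasm by IκB proteins. Signals from TNF, IL-1 or Toll-like receptors activate the IκB kinase, which marks IκB for destruction, and the freed dimers enter the nucleus and switch on inflammatory genes. Among the genes switched on are the brakes of the same pathway: Nfkbia encodes IκBα, which takes NF-κB back out of the nucleus, and Tnfaip3 encodes A20, a ubiquitin-editing enzyme that shuts off the upstream signal. Because these genes respond fast, their transcripts are widely used as a readout of recent NF-κB activity. In the lung, epithelium, endothelium and macrophages all express them. Levels below are CPM as deposited, reads of a gene scaled to a fixed library total, differences are in log2(CPM + 1), and the threshold is an adjusted p of 0.05. The adjusted p comes from limma with Benjamini-Hochberg adjustment over the 15562 genes that averaged 1 CPM or more. In bulk tissue, fewer cells of a type and less RNA per cell cannot be told apart.

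None of the 10 genes changed past the threshold. Of the 8 that could be tested across all genes, 0 passed in any of the 3 comparisons between groups (2 against 0, 5 against 0 and 5 against 2 weeks), and 0 passed in an F-test over the 3 groups. Tnf and Il6 averaged under 1 CPM and were tested singly. The background in each of these 4 tests was also 0%, since 0 of 15562 genes passed. At an unadjusted p under 0.05 the tests picked out Ptgs2 and Lcn2 alone among the members. These were 2 of 8 members in 2 against 0 weeks (background 9.24%), 1 in 5 against 0 weeks (8.63%), 1 in 5 against 2 weeks (10.9%) and 2 in the F-test (10.8%). Ptgs2 was highest on average at 2 weeks, and Lcn2 was highest on average in the controls. The other 6 tested members had unadjusted p-values of 0.0981 or more in every comparison. The median log2 difference of the 8 members was 0.07 at 2 weeks and 0.10 at 5 weeks relative to the controls, and 0.06 at 5 relative to 2 weeks. Over all 15562 genes the medians were 0.019, 0.018 and 0.001.

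**Figure D1:**
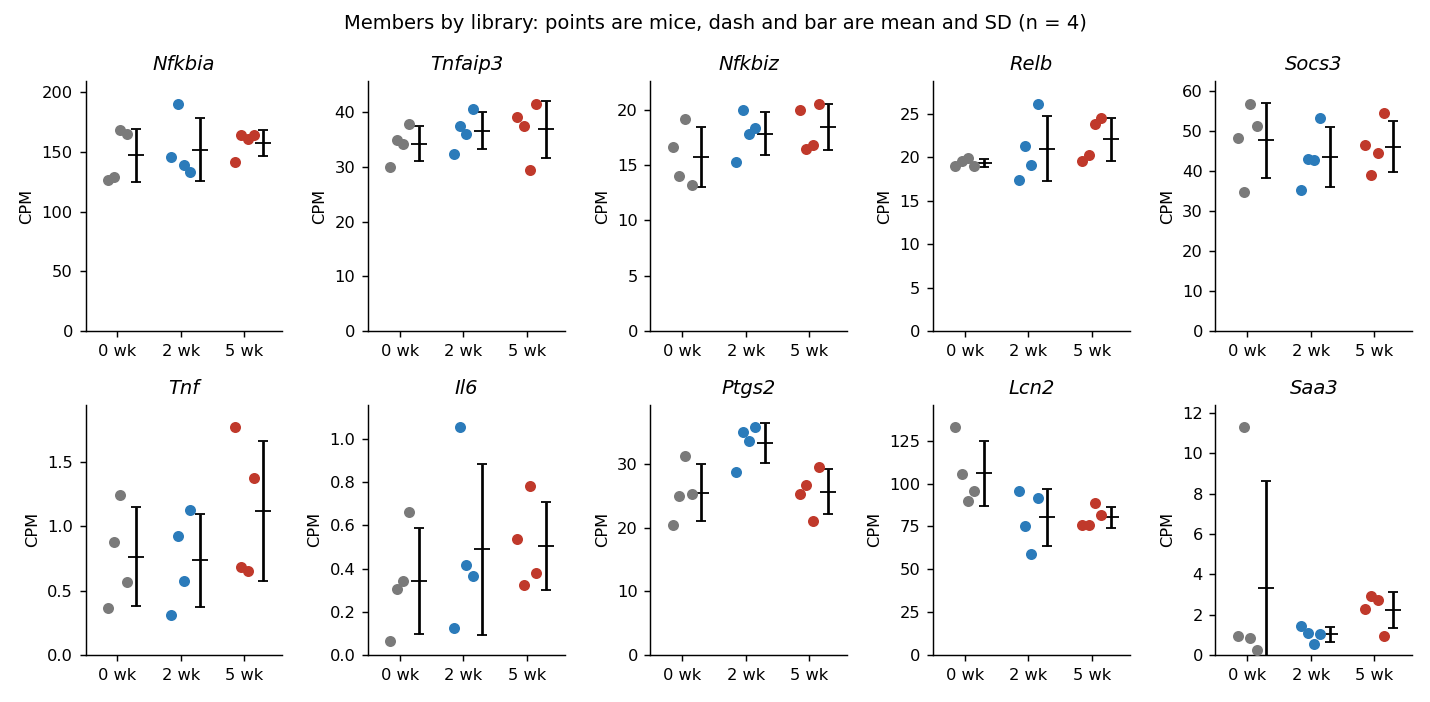
CPM of each of the 10 genes in the 12 lungs, at 0, 2 and 5 weeks (points are mice, the dash and bar are the mean and SD of 4 mice, and each panel has its own axis from 0, which cuts the lower end of the Saa3 control bar). The groups overlap in every panel except for Lcn2, where the 4 libraries at 5 weeks (75.6 to 88.6 CPM) lie below the 4 controls (89.7 to 133 CPM).

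Per kilobase of exon, Nfkbia was the most abundant of the 10, with a mean of 94.7 CPM per kb over the 12 lungs. Lcn2 followed at 33.9 and Socs3 at 15.8 CPM per kb. Ptgs2 (6.16), Relb (5.36), Tnfaip3 (4.96) and Nfkbiz (3.46 CPM per kb) were lower. Saa3 (0.838), Tnf (0.532) and Il6 (0.184 CPM per kb) stood at the bottom. The inhibitor transcripts Nfkbia and Tnfaip3 were thus both more abundant than those of the cytokines TNF and IL-6, in CPM per kb.

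The feedback inhibitors are themselves targets of NF-κB, so their promoters were read for its binding motif. RefSeq promoters on GRCm38.p6, which cover 250 bases before and 50 bases from the start site, were found for 8 of the 10 genes, with a second window for Tnfaip3. Nfkbiz and Relb have no entry. A match to the κB consensus on either strand was present in 3 of these 9 windows, those of Il6, Nfkbia and Tnfaip3, against 1480 of all 32851 windows (4.5%). In 182 of all windows (0.6%) there were at least 2 positions, as in that of Tnfaip3. The 60 bases around each match are shown 5′ to 3′ on the strand of the gene to let the matched letters be read in their context, and capitals mark the 10 bases matched.
Nfkbia, chr12:55492642-55492701, minus strand, match 29 to 20 bases before the start: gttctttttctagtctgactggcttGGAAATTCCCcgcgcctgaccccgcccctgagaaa
Tnfaip3, chr10:19015501-19015560, minus strand, match 125 to 116 bases before the start: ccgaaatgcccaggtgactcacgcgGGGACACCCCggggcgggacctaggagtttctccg
Tnfaip3, chr10:19015388-19015447, minus strand, match 12 to 3 bases before the start: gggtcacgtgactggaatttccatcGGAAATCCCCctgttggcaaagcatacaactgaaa
Il6, chr5:30013045-30013104, plus strand, match 44 to 35 bases before the start: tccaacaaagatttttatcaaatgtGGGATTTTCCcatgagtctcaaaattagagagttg
The matches are descriptions of sequence, and the windows without a match lack only these letters. Of the 3 genes with a match, Nfkbia and Tnfaip3 were among the members with small differences, and Il6 was too low for the test across genes.

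Nfkbia (ENSMUSG00000021025, chromosome 12, 55536195 to 55539432 on the minus strand, as the deposited table places it in a build it does not name) stood at 126.8, 129.5, 168.4 and 164.9 CPM in the controls. It stood at 145.5, 190.4, 138.9 and 133.3 CPM after 2 weeks and at 141.7, 164.2, 161.2 and 164.4 CPM after 5 weeks. The 3 groups overlapped, with 2-week replicate 2 the highest of the 12 lungs. The mean was 147 ± 22.3 CPM in the controls, 152 ± 26.1 CPM at 2 weeks and 158 ± 10.9 CPM at 5 weeks (SD, n = 4 each). The log2 difference was 0.04 ± 0.12 (SE, adjusted p = 0.916) for 2 against 0 weeks and 0.11 ± 0.12 (adjusted p = 0.802) for 5 against 0 weeks in limma. The 95% interval of the 5-week difference runs from 0.90-fold to 1.29-fold, so an increase of the IκBα transcript beyond that size at these times lies outside it.

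Tnfaip3 (ENSMUSG00000019850, chromosome 10, 18876658 to 18891405, minus strand) stood at 30.0, 34.9, 34.1 and 37.8 CPM in the controls. It stood at 32.4, 37.5, 35.9 and 40.4 CPM after 2 weeks and at 39.0, 37.5, 29.4 and 41.5 CPM after 5 weeks. The highest and the lowest value of the A20 transcript were both in the 5-week group, in replicates 4 and 3. In limma its log2 difference was 0.09 ± 0.11 for 2 against 0 weeks (95% interval 0.91-fold to 1.26-fold, adjusted p = 0.786) and 0.10 ± 0.11 for 5 against 0 weeks (0.91-fold to 1.26-fold, adjusted p = 0.8).

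Nfkbiz encodes IκBζ, a nuclear member of the IκB family that, unlike IκBα, helps NF-κB to switch on a second wave of genes, Lcn2 and Il6 among them in mouse macrophages. Nfkbiz (ENSMUSG00000035356, chromosome 16, 55631738 to 55659262, minus strand) stood at 16.65, 13.98, 19.2 and 13.2 CPM in the controls. It stood at 15.3, 19.97, 17.8 and 18.3 CPM after 2 weeks and at 19.9, 16.5, 16.8 and 20.54 CPM after 5 weeks. The controls overlapped both treated groups through replicates 1 and 3. In limma Nfkbiz had a log2 difference of 0.18 ± 0.12 for 2 against 0 weeks (adjusted p = 0.653) and 0.22 ± 0.12 for 5 against 0 weeks (0.97-fold to 1.40-fold, adjusted p = 0.645). Of the 6 IκB genes Nfkbiz had the most positive log2 difference at 2 weeks, and Nfkbid, an atypical IκB gene, at 5 weeks (0.29 ± 0.15, adjusted p = 0.617).

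Relb encodes the NF-κB subunit of the slower, non-canonical branch of the pathway, and its transcription is itself driven by NF-κB. Relb (ENSMUSG00000002983, chromosome 7, 19340142 to 19363363, minus strand) stood at 19.0, 19.5, 19.9 and 19.0 CPM in the controls. It stood at 17.4, 21.3, 19.2 and 26.2 CPM after 2 weeks and at 19.6, 20.3, 23.9 and 24.5 CPM after 5 weeks. The controls lay within 1 CPM of each other, whereas the treated lungs spread more widely, with 2-week replicate 4 the highest. The mean was 22.1 ± 2.48 CPM at 5 weeks and 19.4 ± 0.443 CPM in the controls (SD, n = 4 each). The log2 difference in limma was 0.17 ± 0.11 for 5 against 0 weeks (adjusted p = 0.68) and 0.10 ± 0.11 for 2 against 0 weeks (adjusted p = 0.787). An exact two-sided permutation test for 5 against 0 weeks gave p = 0.0571, where 4 against 4 mice allow no p below 0.0286.

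Socs3 encodes the suppressor that stops signalling from the IL-6 receptor through JAK and STAT3, and STAT3 induces it. Socs3 (ENSMUSG00000053113, chromosome 11, 117856905 to 117860873, minus strand) stood at 48.1, 34.8, 56.8 and 51.2 CPM in the controls. It stood at 35.2, 43.0, 42.7 and 53.2 CPM after 2 weeks and at 46.6, 39.0, 44.5 and 54.5 CPM after 5 weeks. Control replicate 2 was the lowest of the 12 lungs and control replicate 3 the highest. In limma Socs3 had a log2 difference of -0.12 ± 0.15 for 2 against 0 weeks (0.73-fold to 1.16-fold, adjusted p = 0.798) and -0.04 ± 0.15 for 5 against 0 weeks (0.77-fold to 1.23-fold, adjusted p = 0.953). The 5-week difference had the opposite sign without control replicate 3 (0.053), without control replicate 4 (0.0041) and without 5-week replicate 2 (0.039).

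Tnf and Il6 encode the cytokines TNF and IL-6, which start and spread the acute response and which mainly macrophages, and for IL-6 also stromal cells, release. Tnf (ENSMUSG00000024401, chromosome 17, 35418357 to 35420983, minus strand) stood at 0.361, 0.876, 1.25 and 0.568 CPM in the controls. It stood at 0.312, 0.921, 0.576 and 1.13 CPM after 2 weeks and at 1.77, 0.682, 0.656 and 1.38 CPM after 5 weeks. The highest values were in 5-week replicates 1 and 4, and the other 5-week lungs lay within the control range. These values stand for about 10 to 47 reads per library, as read from the step of the low CPM values. The mean was 1.12 ± 0.545 CPM at 5 weeks and 0.763 ± 0.386 CPM in the controls (SD, n = 4 each), and the exact two-sided permutation p was 0.314. The exact permutation p was 0.857 when the 2-week lungs were set against the controls, and 0.314 when the 5-week lungs were set against the 2-week lungs.

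Il6 (ENSMUSG00000025746, chromosome 5, 30218112 to 30224979, plus strand) stood at 0.0656, 0.305, 0.34 and 0.663 CPM in the controls. It stood at 0.125, 1.053, 0.416 and 0.365 CPM after 2 weeks and at 0.538, 0.323, 0.781 and 0.381 CPM after 5 weeks. Only 2-week replicate 2 exceeded 1 CPM, and that lung also had the highest Nfkbia. The values stand for about 2 to 32 reads per library. The mean was 0.506 ± 0.205 CPM at 5 weeks and 0.343 ± 0.245 CPM in the controls (SD, n = 4 each; exact two-sided permutation p = 0.343). It was 0.49 ± 0.396 CPM at 2 weeks (exact permutation p = 0.543 against the controls). No difference in either cytokine gene was detected. With the filter on low values removed, the adjusted p in limma was 0.733 or more for Tnf and 0.823 or more for Il6.

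Ptgs2 encodes cyclooxygenase-2, the inducible enzyme that turns arachidonic acid into the precursor of prostaglandins and prostacyclin, and it is induced by NF-κB and by growth and stress signals. Ptgs2 (ENSMUSG00000032487, chromosome 1, 149975782 to 149983978, plus strand) stood at 20.45, 25.03, 31.35 and 25.37 CPM in the controls. It stood at 28.87, 35.14, 33.75 and 35.83 CPM after 2 weeks and at 25.35, 26.74, 21.17 and 29.65 CPM after 5 weeks. In 3 of the 2-week lungs it lay above all 8 other lungs, and 2-week replicate 1 lay below control replicate 3 and 5-week replicate 4. The mean was 33.4 ± 3.14 CPM at 2 weeks and 25.55 ± 4.47 CPM in the controls (SD, n = 4 each), a 30.7% higher mean. The log2 difference for 2 against 0 weeks was 0.38 ± 0.13 (95% interval 1.08-fold to 1.58-fold), with an unadjusted p of 0.0102 and an adjusted p of 0.41 in limma. At 5 weeks the mean was 25.7 ± 3.53 CPM. The log2 difference for 5 against 2 weeks was -0.37 ± 0.13 (unadjusted p = 0.0128, adjusted p = 0.332 in limma), and for 5 against 0 weeks 0.02 ± 0.13 (adjusted p = 0.976). The exact two-sided permutation p was 0.0571 both for 2 against 0 and for 5 against 2 weeks. The 2 comparisons share the 2-week mice. Over the alternatives tried, the adjusted p lay between 0.153 and 0.766 for 2 against 0 weeks and between 0.0967 and 0.684 for 5 against 2 weeks.

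Lcn2 encodes lipocalin 2, a secreted protein that withholds iron from bacteria. It is stored in neutrophil granules and is made by inflamed epithelium. Lcn2 (ENSMUSG00000026822, chromosome 2, 32274645 to 32278264, minus strand) stood at 133, 105, 89.7 and 95.7 CPM in the controls. It stood at 95.4, 75.1, 59.0 and 91.4 CPM after 2 weeks and at 75.6, 75.8, 88.6 and 81.4 CPM after 5 weeks. All 5-week lungs lay below all controls, and the 2-week lungs overlapped the controls. The mean was 80.3 ± 6.15 CPM at 5 weeks and 106 ± 19.1 CPM in the controls (SD, n = 4 each), a change of the mean by -24.1%. The log2 difference for 5 against 0 weeks was -0.38 ± 0.15 (0.62-fold to 0.96-fold), with an unadjusted p of 0.0225 and an adjusted p of 0.549 in limma. The exact two-sided permutation p was 0.0286, the smallest that 4 against 4 mice allow. Among all 15562 genes 5.01% had groups that did not overlap in 5 against 0 weeks, 5.32% in 2 against 0 weeks and 4.94% in 5 against 2 weeks. Lcn2 at 5 weeks was the single case among the 10 members and 3 comparisons. For 2 against 0 weeks the mean was 80.2 ± 16.7 CPM at 2 weeks (log2 difference -0.40 ± 0.15, unadjusted p = 0.0166, adjusted p = 0.438 in limma; exact permutation p = 0.114). Over the alternatives tried, the log2 difference lay between -0.49 and -0.27 at 5 weeks and between -0.50 and -0.26 at 2 weeks, with no adjusted p below 0.171.

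Saa3 encodes a serum amyloid A protein that mouse macrophages, epithelium and adipocytes make in the acute phase. Saa3 (ENSMUSG00000040026, chromosome 7, 46361422 to 46365124, minus strand) stood at 0.95, 11.3, 0.831 and 0.221 CPM in the controls. It stood at 1.43, 1.09, 0.544 and 1.03 CPM after 2 weeks and at 2.27, 2.91, 2.72 and 0.938 CPM after 5 weeks. Control replicate 2 alone lay above 3 CPM, and 3 of the 5-week lungs lay above every lung but that one. The values stand for about 295 reads in control replicate 2 and about 7 to 87 reads in each other library. The within-group SD of Saa3 was 0.91 on the log2 scale, larger than for 99.1% of the tested genes, whose median was 0.17. Limma gave a log2 difference of -0.44 ± 0.54 for 2 against 0 weeks (adjusted p = 0.797) and 0.20 ± 0.54 for 5 against 0 weeks (adjusted p = 0.925). For 5 against 2 weeks it was 0.63 ± 0.54 (0.69-fold to 3.50-fold, adjusted p = 0.733). Without control replicate 2 the log2 difference was 0.29 for 2 against 0 weeks and 0.92 for 5 against 0 weeks, and neither passed.

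**Figure D2:**
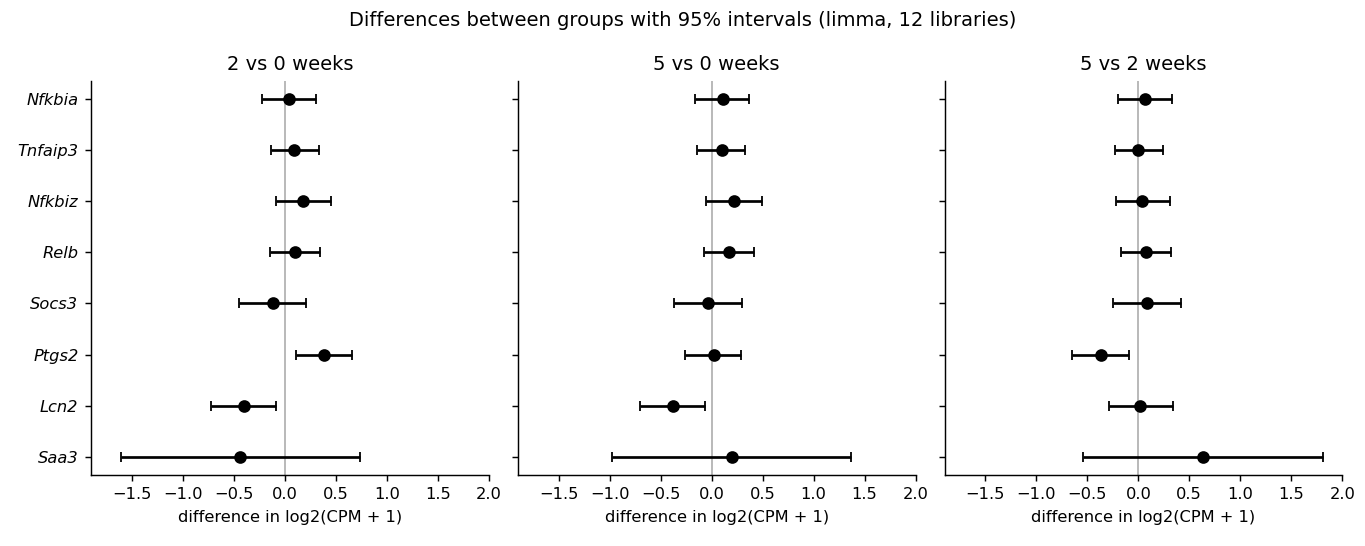
Differences in log2(CPM + 1) with 95% intervals for the 8 members tested in limma, for 2 against 0, 5 against 0 and 5 against 2 weeks (the dot is the difference, a positive value is higher at the later time, and the line marks 0). The unadjusted intervals leave out 0 for Ptgs2 in 2 against 0 and 5 against 2 weeks and for Lcn2 in both comparisons with the controls, and the Saa3 intervals are the widest.

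Control replicate 2, which carried the high Saa3, also carried fat cell transcripts. Adipoq, which encodes the adipocyte hormone adiponectin, stood at 157 CPM there, against 1.93 to 7.24 CPM in the other controls. The lipid droplet genes Plin1 and Cidec stood at 163 and 186 CPM in the same lung. The 10 adipocyte markers summed to 2501 CPM in that lung, against 68.5 to 180 CPM in the other controls, 78.1 to 490 CPM at 2 weeks and 65.7 to 247 CPM at 5 weeks. Saa3 and the mean of the adipocyte markers had r = 0.82 over the 12 lungs (Spearman's rho 0.60). The permutation p was 0.0111 for r and 0.0437 for rho (adjusted 0.308 and 0.463 over 200 relations of members with marker lists). With the 2 lungs farthest from the median of Saa3 left out, r was 0.40, and with the 2 farthest on the adipocyte mean it was 0.10, so the relation rests on those lungs. The same lung also had the highest sums of interstitial macrophage markers (1909 CPM) and fibroblast markers (3710 CPM). Saa3 had r = 0.65 with the interstitial macrophage mean (permutation p = 0.0601, rho 0.10) and r = 0.63 with the fibroblast mean (permutation p = 0.0358, rho 0.36, adjusted p = 0.348). Without the 2 lungs farthest from the median of Saa3 these were -0.29 and -0.11. Socs3, lowest in control replicate 2, had r = -0.72 with the adipocyte mean (permutation p = 0.00252, rho -0.78, adjusted p = 0.195). It was -0.83 after centring on the group means. Without the 2 lungs farthest from the median of Socs3 it was -0.56, and without the 2 farthest on the adipocyte mean -0.77. The part of fat tissue or of these cells in the Saa3 and Socs3 values was not tested. The liver forms Saa1 and Saa2 averaged under 1 CPM.

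**Figure D3:**
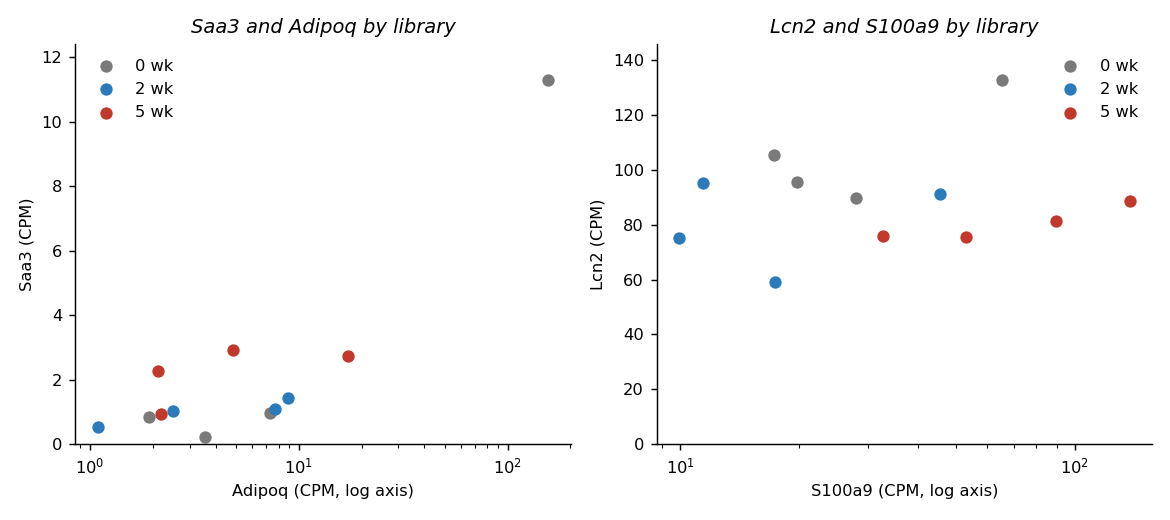
Saa3 against the adipocyte gene Adipoq and Lcn2 against the neutrophil gene S100a9, both in CPM with a log x axis, in the 12 lungs (each point a mouse, coloured by group). Control replicate 2 stands alone at 157 CPM of Adipoq and 11.3 CPM of Saa3, and the 5-week lungs have 32.7 to 138 CPM of S100a9 with 75.6 to 88.6 CPM of Lcn2. The lowest Lcn2, 59.0 CPM, is in a 2-week lung with 17.4 CPM of S100a9.

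Neutrophils are a known source of Lcn2, and their markers were set beside it. The 12 neutrophil markers summed to 79.2 to 219 CPM in the controls, 67.5 to 170 CPM at 2 weeks and 143 to 393 CPM at 5 weeks. Of these, the surface protein gene Ly6g and the granule genes Camp and Ngp were near 0, at or under 0.557, 0.266 and 1.06 CPM in every lung. The granule gene Ltf lay between 5.39 and 31.4 CPM, S100a8 between 7.32 and 89.7 CPM and S100a9 between 9.94 and 138 CPM. Lcn2 and the neutrophil mean had r = 0.12 (permutation p = 0.7) and rho = 0.01 (permutation p = 0.974) over the 12 lungs. After centring on the group means r was 0.58 (permutation p = 0.0811, adjusted p = 0.522). Interstitial macrophage markers summed to 1109 to 1258 CPM at 5 weeks and 1371 to 1909 CPM in the controls, and their mean had r = 0.60 with Lcn2 (permutation p = 0.0609, rho 0.68, adjusted p = 0.482 for r), or 0.28 after centring on the group means. Glucocorticoid response genes summed to 1629 to 2134 CPM in the controls, 1409 to 1981 CPM at 2 weeks and 1467 to 2055 CPM at 5 weeks, and their mean had r = 0.35 with Lcn2 (permutation p = 0.267, rho 0.38), or -0.39 after centring (permutation p = 0.178). The part of these markers in the Lcn2 difference was not tested.

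Immediate early genes, which respond within minutes to stress, growth factors and handling, were set beside the members. Their 11 markers summed to 1650 to 2870 CPM in the controls, 2734 to 4573 CPM at 2 weeks and 2404 to 3684 CPM at 5 weeks, with overlap. Ptgs2 had r = 0.70 with their mean over the 12 lungs (permutation p = 0.0109, rho 0.76, adjusted p = 0.308 for r), and r = 0.64 without the 2 lungs farthest from the median of Ptgs2. Nfkbiz had r = 0.78 (permutation p = 0.00292, rho 0.83, adjusted p = 0.195) and r = 0.71 without its 2 farthest lungs. Lcn2 had r = -0.63 (permutation p = 0.0294, rho -0.76, adjusted p = 0.348). Tnfaip3 had r = 0.64 (permutation p = 0.027, rho 0.68, adjusted p = 0.348). After centring on the group means r was 0.72 for Ptgs2, 0.73 for Nfkbiz and -0.29 for Lcn2. It was likewise positive for Socs3 (0.72), Tnf (0.70), Tnfaip3 (0.64), Nfkbia (0.58), Il6 (0.41) and Relb (0.34), and negative for Saa3 (-0.52). Ptgs2 also had r = 0.69 with the endothelial marker mean (permutation p = 0.0147, rho 0.57, adjusted p = 0.308 for r), and 0.69 after centring. Without the 2 lungs farthest from the median of Ptgs2 this r was 0.39, and without the 2 farthest on the endothelial mean 0.59. The 7 smooth muscle markers summed to 1134 to 1721 CPM at 2 weeks and 986 to 1130 CPM in the controls. These ranges nearly met without overlap, and 5.32% of all 15562 genes had groups without overlap in this comparison. The mean of the smooth muscle markers had r = 0.55 with Ptgs2 (permutation p = 0.0675, rho 0.58), or -0.12 after centring on the group means (permutation p = 0.674). None of the 200 relations of the 10 members with 20 marker lists passed adjustment, and the lowest adjusted p was 0.195. The part of these markers in the values of the members was not tested.

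Among themselves the 10 members were loosely related. Of the 45 pairs 31 had a positive r over the 12 lungs, with a median of 0.21, and 0 passed adjustment (lowest adjusted p = 0.289). The strongest positive pairs were Nfkbia with Il6 (r = 0.67, rho 0.55), Nfkbiz with Tnf (r = 0.65, rho 0.75) and Tnfaip3 with Tnf (r = 0.64, rho 0.62). Their permutation p-values for r were 0.0164, 0.0221 and 0.0257, each with an adjusted p of 0.289. Nfkbia with Il6 had r = 0.30 without the 2 lungs farthest from the median of Nfkbia, whereas by the same step Nfkbiz with Tnf had r = 0.87 and Tnfaip3 with Tnf r = 0.59. Socs3 and Saa3 had the most negative r (-0.64, permutation p = 0.0177, rho -0.64, adjusted p = 0.289). In control replicate 2 Socs3 was lowest and Saa3 highest. After centring on the group means, Tnfaip3 and Ptgs2 had the largest positive r, 0.77 (adjusted permutation p = 0.242). Before centring this pair had r = 0.61, and 0.12 without the 2 lungs farthest from the median of either gene.

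**Figure D4:**
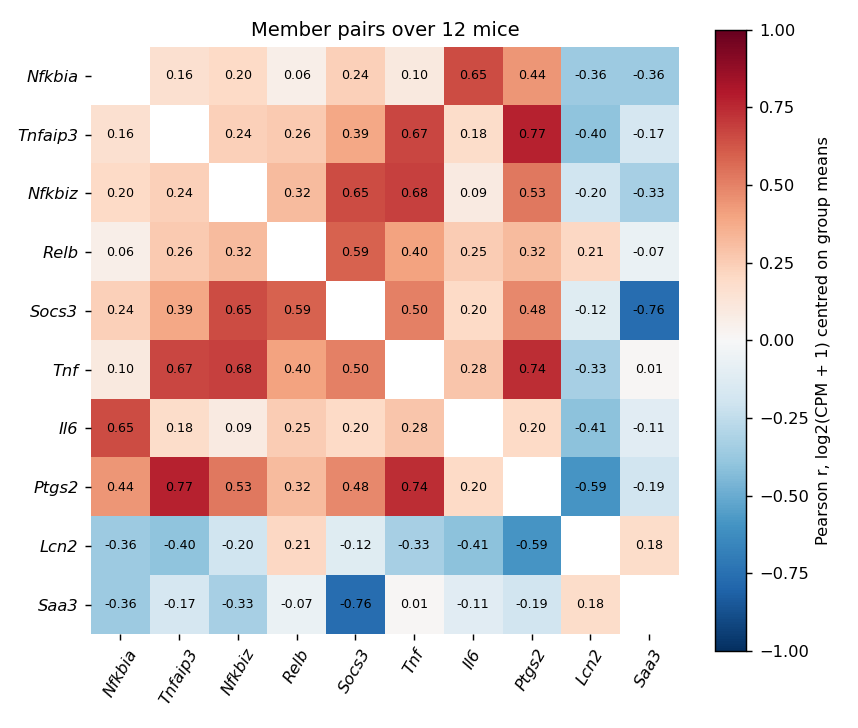
Pearson's r between each pair of the 10 genes over the 12 lungs, computed on log2(CPM + 1) after subtraction of the group means (red positive, blue negative, the number in each cell is r). Nfkbia, Tnfaip3, Nfkbiz, Relb, Socs3, Tnf, Il6 and Ptgs2 are positive with each other, and Lcn2 is negative with all of these but Relb, with no pair past adjustment.

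The genes most like each member over the 12 lungs were sought among 14053 genes by Pearson's r, and are given as descriptions. For Nfkbia they were Srsf10 (r = 0.86), Ankrd13d (0.83) and Rad51c (0.83). For Tnfaip3 they were Map3k4 (r = 0.95), Smarca4 (0.94) and Myo10 (0.90). For Nfkbiz they were Mmp11 (r = 0.89), Nabp2 (0.88) and Ccn1 (0.85), the last a matrix protein gene of the immediate early type. Ccn1 lay between 193 and 345 CPM in the controls, 382 and 691 CPM at 2 weeks and 372 and 579 CPM at 5 weeks. For Relb they were Rnf115 (r = 0.91), Yju2 (0.90) and Trp53 (0.89), which encodes p53. For Socs3 they were Dennd2c (r = 0.86), Zfp959 (0.84) and Slc25a30 (0.83). The pattern of Ptgs2 was shared most closely by Tox3 (r = 0.96), Klhl17 (0.95) and Dll4 (0.93), which encodes a Notch ligand of endothelial cells. Dll4 stood at 123 to 132 CPM at 2 weeks, 101 to 120 CPM in the controls and 99.5 to 123 CPM at 5 weeks. Dll4 and Ccn1 were picked for their likeness to a member, so their group ranges follow in part from that choice. Among all 15562 genes 5.32% had groups that did not overlap in 2 against 0 weeks and 5.01% in 5 against 0 weeks. The pattern of Lcn2 was shared most closely by Pamr1 (r = 0.83), Lrg1 (0.82) and Tns4 (0.79). For Saa3, Tenm4 (r = 0.94), Serpina3c (0.94) and Igkv1-110 (0.93) led, and all 3 were highest in control replicate 2. Without the 2 lungs farthest from the median of Saa3 those values were 0.81, 0.80 and 0.77.

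The wider pathway was described by lists, again with 0 past the threshold in every list and comparison. The lists also hold the members, so their medians and counts include the members that passed the filter. The 5 NF-κB subunit genes had a median log2 difference of -0.02 for 2 against 0 weeks and 0.01 for 5 against 0 weeks, with Nfkb1, which encodes p105 and p50, at -0.02 ± 0.07 and 0.09 ± 0.07. The 6 IκB genes had medians of -0.02 and 0.11, and all 6 were higher on average in 5 against 2 weeks (median 0.11). Among the 17 genes of the IκB kinase complex and its upstream adaptors, 7 were higher and 10 lower on average at 2 weeks, and 10 higher and 7 lower at 5 weeks, each against the controls. Ripk1, the kinase of the TNF receptor complex, averaged 47.3 ± 6.43 CPM at 2 weeks and 58.3 ± 8.53 CPM in the controls (unadjusted p = 0.0257, adjusted p = 0.477 in limma). Myd88, the adaptor of Toll-like and IL-1 receptors, averaged 44.1 ± 1.79 CPM at 5 weeks and 38.9 ± 3.58 CPM at 2 weeks (adjusted p = 0.4).

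Of 14 negative feedback genes, 6 were higher and 8 lower at 2 weeks, and 8 higher and 6 lower at 5 weeks, each against the controls. The gene with the smallest p among them was Zfp36, which encodes tristetraprolin, a protein that destroys the mRNAs of TNF and other cytokines. Zfp36 stood at 242, 161, 310 and 288 CPM in the controls, at 322, 542, 360 and 406 CPM after 2 weeks and at 400, 364, 295 and 436 CPM after 5 weeks. All 2-week lungs lay above all controls, and 5.32% of all 15562 genes had groups that did not overlap in this comparison. Limma gave Zfp36 a log2 difference of 0.72 ± 0.20 for 2 against 0 weeks (adjusted p = 0.316) and 0.60 ± 0.20 for 5 against 0 weeks (adjusted p = 0.517). Zfp36 is also an immediate early gene. Tax1bp1, a partner of A20, averaged 212 ± 12.55 CPM at 2 weeks and 241 ± 13.3 CPM in the controls (adjusted p = 0.437).

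Of the TNF ligands, receptors and shedding genes, 7 of 9 passed the filter. Tnfrsf1b, which encodes TNF receptor 2, averaged 70.2 ± 6.004 CPM at 5 weeks and 45.7 ± 14.7 CPM at 2 weeks (adjusted p = 0.288 in limma), with 55.2 ± 9.30 CPM in the controls. Ltb, the lymphotoxin gene of lymphocytes, averaged 36.2 ± 15.2 CPM at 5 weeks and 19.7 ± 2.95 CPM in the controls (adjusted p = 0.513). Its highest value, 59.0 CPM, was in 5-week replicate 3, where the B cell markers summed to 394 CPM, against 191 to 200 CPM in the other 5-week lungs. The part of B cells in the Ltb value was not tested.

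Among 17 genes of IL-6 and STAT3 signalling, Socs3 included, 16 passed the filter, with medians of -0.01 for 2 against 0 weeks and -0.04 for 5 against 0 weeks. Osmr, which encodes the receptor of oncostatin M, a cytokine of the IL-6 family, stood at 75.3, 61.8, 65.0 and 76.4 CPM in the controls. It stood at 49.65, 53.4, 49.1 and 55.3 CPM after 2 weeks and at 52.1, 57.7, 45.8 and 63.7 CPM after 5 weeks. All 2-week lungs lay below all controls (5.32% of all 15562 genes had no overlap in this comparison), and 5-week replicate 4 overlapped the controls. The log2 difference in limma was -0.41 ± 0.10 for 2 against 0 weeks (unadjusted p = 0.00135, adjusted p = 0.238) and -0.34 ± 0.10 for 5 against 0 weeks (adjusted p = 0.513). Stat3 averaged 204 ± 4.23 CPM at 2 weeks and 236 ± 11.7 CPM in the controls (-0.20 ± 0.07, adjusted p = 0.41).

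Among 16 genes of prostaglandin synthesis and its receptors, Ptgs2 included, 15 passed the filter. At 2 weeks against the controls 3 of these were higher on average (Ptgs2 itself, Hpgd and Ptgir) and 12 lower. Tbxas1, the thromboxane synthase gene of platelets and macrophages, stood at 7.90, 9.49, 4.68 and 7.98 CPM in the controls. It stood at 3.83, 4.57, 3.01 and 6.61 CPM after 2 weeks and at 7.84, 6.96, 7.12 and 7.76 CPM after 5 weeks. The 2-week replicates 1, 2 and 3 lay below every other lung, whereas Ptgs2 was highest in 2-week replicates 2, 3 and 4. Replicate 4, the highest in Ptgs2, had Tbxas1 within the range of the controls. The log2 difference in limma was -0.63 ± 0.20 for 2 against 0 weeks (adjusted p = 0.396) and 0.65 ± 0.20 for 5 against 2 weeks (adjusted p = 0.29). Alveolar macrophage markers summed to 444, 489, 432 and 903 CPM in 2-week replicates 1 to 4, so the 3 lungs low in Tbxas1 were also low in these. They summed to 463 to 894 CPM in the controls and 760 to 964 CPM at 5 weeks, and their part was not tested.

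The list around Lcn2 and Saa3, which holds both, has 20 acute phase and innate secreted protein genes, of which 15 passed the filter. Of these 10 were lower and 5 higher on average at 2 weeks, with a median log2 difference of -0.11, and 8 were lower and 7 higher at 5 weeks, with a median of -0.14. Unadjusted, 4 (Lcn2 itself, Orm1, Lrg1 and Itih4) were lower at p under 0.05 in each comparison with the controls and 0 were higher. Over all 15562 genes, 548 were lower and 890 higher in 2 against 0 weeks, and 434 lower and 909 higher in 5 against 0 weeks, by the same measure. The controls of Orm1 were very uneven (mean 3.25 CPM, SD 4.73 CPM), against means of 0.328 CPM at 2 weeks and 0.35 CPM at 5 weeks. Itih4, which encodes an inter-alpha-trypsin inhibitor heavy chain, stood at 67.5, 99.2, 53.8 and 73.8 CPM in the controls, at 49.5, 48.7, 43.4 and 62.6 CPM after 2 weeks and at 41.3, 42.7, 41.1 and 37.9 CPM after 5 weeks. All 5-week lungs lay below all controls. The log2 difference for 5 against 0 weeks was -0.80 ± 0.15 (unadjusted p = 0.000149, adjusted p = 0.215 in limma). Lrg1, which encodes a secreted glycoprotein of the acute phase that endothelium also makes, stood at 132, 152, 79.3 and 76.7 CPM in the controls. It stood at 68.3, 61.0, 56.8 and 75.4 CPM after 2 weeks and at 56.7, 52.2, 66.6 and 58.3 CPM after 5 weeks. Every treated lung lay below every control, and Lrg1, like Itih4, was highest in control replicate 2, the lung with the fat cell transcripts. Both genes were named for their small F-test p, which favours groups that do not overlap. Among all 15562 genes 5.32% had groups that did not overlap in 2 against 0 weeks and 5.01% in 5 against 0 weeks. The log2 difference was -0.69 ± 0.19 for 2 against 0 weeks (adjusted p = 0.308) and -0.84 ± 0.19 for 5 against 0 weeks (adjusted p = 0.331 in limma).

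**Figure D5:**
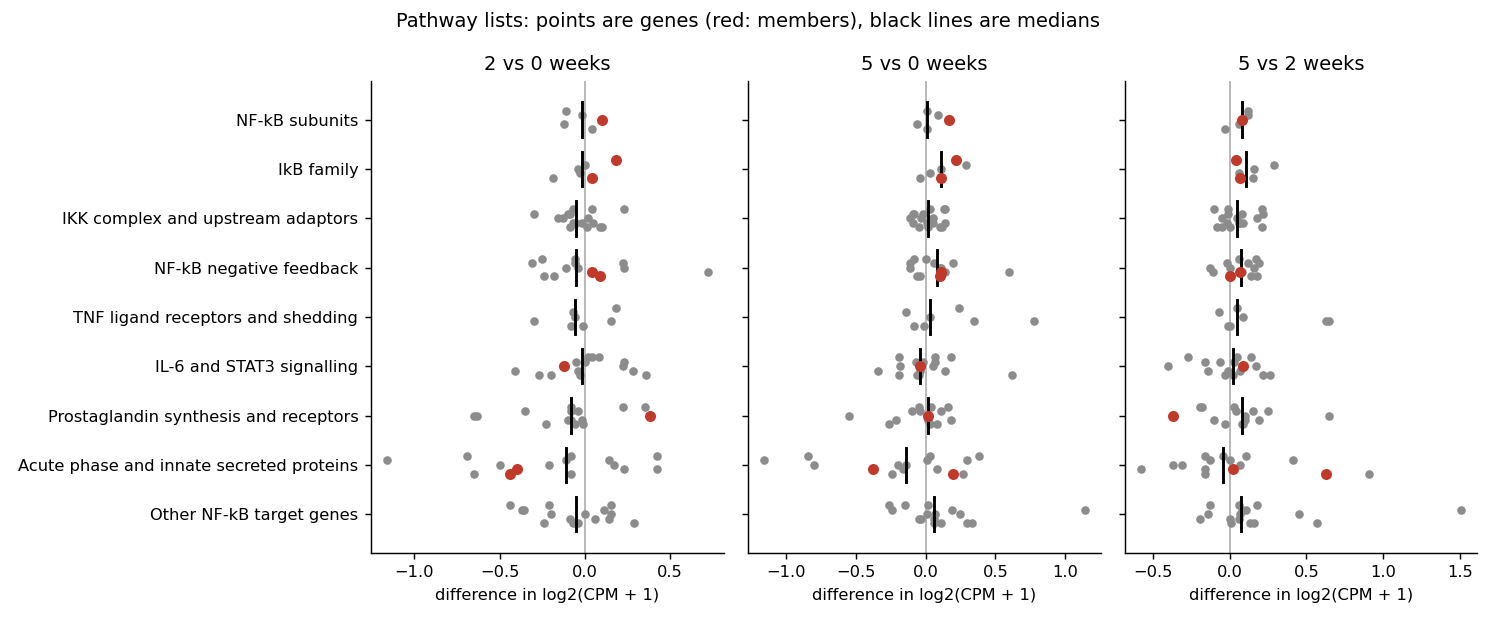
Differences in log2(CPM + 1) of the tested genes of 9 pathway lists, for 2 against 0, 5 against 0 and 5 against 2 weeks (each point is a gene, members in red, the black line is the list's median, a positive value is higher at the later time, and the points are spread up and down only for legibility). The medians lie between -0.14 and 0.11, and Il1b is the point at 1.51 in 5 against 2 weeks.

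Of 20 other NF-κB target genes, 16 passed the filter, and 11 of these were higher and 5 lower on average at 5 weeks against the controls (median 0.06). Bcl2l1, which encodes the survival protein Bcl-xL, averaged 125 ± 15.3 CPM at 2 weeks and 169 ± 17.3 CPM in the controls (log2 difference -0.44 ± 0.10, adjusted p = 0.184 in limma). Il1b, the gene of IL-1β, averaged 28.2 ± 11.7 CPM at 5 weeks and 9.64 ± 6.04 CPM at 2 weeks (log2 difference 1.51 ± 0.39, adjusted p = 0.288). Il1b stood at 25.1, 13.2, 35.5 and 39.2 CPM in the 5-week lungs. Like Nfkbia and Tnfaip3 it overlapped the other groups, with 17.7 CPM in control replicate 1 and 18.3 CPM in 2-week replicate 4. It averaged 11.8 ± 4.28 CPM in the controls (log2 difference 1.14 ± 0.39 for 5 against 0 weeks, adjusted p = 0.521 in limma). The 5-week neutrophil sums given above were also the highest of the 3 groups on average.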

How the data were processed

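Whole-lung RNA of 12 mice was measured, 4 per group, grouped by the titles in the labels. Lungs were flash frozen, per the labels' protocols, and TopHat2, Partek and mm10 are named in the submitters' processing notes. No source used here gives versions, the annotation or whether counting used strand. The deposited table holds CPM with an offset of 0.0001 in every cell. Gene starts equalled GENCODE M21 for only 501 of 23073 matched genes, whereas gene lengths equalled it for 22662. Gene positions are printed as deposited and cannot be set beside the promoter positions, which are on GRCm38.p6.

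From the steps of low values, depth was 25900000 to 34000000 reads per library, and whole steps (within 0.1) held 87.8% to 88.4% of low values, so reads were not recovered. Values were set to log2(CPM + 1) and filtered at a mean of 1 CPM. Limma 3.58.1 in R 4.3.3 fitted 3 group means over 12 libraries with a variance trend, after being tested on simulated data. Single genes had exact permutation tests, and correlations 100000 permutations, in Python 3.11.15 with scipy 1.17.1. On principal components 3 libraries lay far from the rest: 2-week replicate 3, 5-week replicate 3 and control replicate 2. Leaving them out was added after seeing the data. Replicate numbers follow accession order and pair nothing. P-values measure the spread between these mice.

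The members, the lists and the tests were chosen with earlier results of these data known. The genes named are the 10 members, the 3 genes most like each tested member, and from each list those past the threshold or otherwise the 2 with the smallest F-test p. Marker genes are named where near 0 or where a library stands apart. Exon lengths for CPM per kb are from GENCODE M21. Alternatives were pseudocounts of 0.1 and 5, no filter, a filter of 10 CPM, median-of-ratios scaling, library weights, fits of the compared groups alone, and each library left out.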

Additional observations from a re-analysis of the deposited data

Results flagged for a closer look

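Each group of 4 libraries was examined for a library far from the rest, in CPM and in log2(CPM + 1), by its gap to the nearest other library as a share of the range of the group. The critical value of Dixon for 4 samples is 0.829. Of 30 groups examined, 2 passed it on at least 1 scale, where chance alone gives about 1 in 20 on a single scale.

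For Nfkbia, 5-week replicate 1 was the lowest of its group at 141.7 CPM, against 161 to 164 CPM in the other 5-week libraries, with a gap of 0.86 of the range on both scales. The value lies within the range of the controls (127 to 168 CPM). For Saa3, control replicate 2 was the highest of its group at 11.28 CPM, against 0.221 to 0.95 CPM in the other controls. Its gap was 0.93 of the range in CPM and 0.80 in log2(CPM + 1), so only the first passed.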

How the results depend on the processing

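Under every setting tried, 0 members passed the threshold in each of the 3 comparisons and in the F-test. Of 549 member values recomputed, 508 kept their direction and 41 turned sign, in 15 of 30 member comparisons, none of which passed. Numbers of genes past the threshold depended on the setting. With library weights they were 18 for 2 against 0 weeks and 881 for 5 against 2 weeks. With a library left out they ranged from 0 to 24 for 2 against 0 weeks (24 without 5-week replicate 3, 1 without control replicate 1), from 0 to 1 for 5 against 0 weeks (without control replicate 1) and from 0 to 386 for 5 against 2 weeks (without 2-week replicate 4). The cause was not tested.

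Signs turned as follows (log2 differences). With library weights, Nfkbia for 5 against 2 weeks was -0.034, Socs3 for 5 against 0 weeks 0.014, Lcn2 for 5 against 2 weeks -0.018 and Saa3 for 5 against 0 weeks -0.0077. With median-of-ratios scaling, Tnfaip3 for 5 against 2 weeks was -0.00019 and Ptgs2 for 5 against 0 weeks -0.0087. With a pseudocount of 5, Saa3 for 5 against 0 weeks was -0.041. Without the 3 libraries that stand apart, Tnf for 2 against 0 weeks was 0.054, Il6 for 5 against 2 weeks -0.055, Lcn2 for 5 against 2 weeks -0.16 and Saa3 for 2 against 0 weeks 0.41.

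With a library left out, values for 2 against 0 weeks ranged from -0.07 to 0.11 for Nfkbia, -0.14 to 0.1 for Tnf, -0.034 to 0.26 for Il6, -0.82 to 0.29 for Saa3 and -0.0093 to 0.18 for Relb. For 5 against 0 weeks they ranged from -0.18 to 0.053 for Socs3, -0.082 to 0.12 for Ptgs2 and -0.19 to 0.92 for Saa3. For 5 against 2 weeks they ranged from -0.025 to 0.098 for Nfkbiz, -0.055 to 0.11 for Tnfaip3, -0.082 to 0.21 for Il6, -0.0086 to 0.19 for Socs3, -0.11 to 0.11 for Lcn2 and -0.0032 to 0.18 for Relb. No paired analysis was possible because replicate numbers only name the libraries. Tnf and Il6 rest on about 2 to 47 reads per library, and Saa3 on about 7 to 87 outside control replicate 2.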
